A study of Mus musculus with 2 samples.

Results

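The C-type lectin receptor genes of mouse peritoneal macrophages were described after siRNA treatment against HDAC9, a class IIa histone deacetylase. The members were all genes whose only symbol in the array annotation begins with Clec, a number and a letter. Genes entered by symbol alone, and signals served only to sort them into above and below background. The family itself was chosen with earlier results of these data known. In all, 26 of 18193 genes on the array met the rule, with 36 probe sets among them. A gene table of the mouse genome held 33 protein-coding genes with such symbols, and the other 7 (Clec3a, Clec2f, Clec4a1, Clec4a4, Clec4b2, Clec9a and Clec12a) were not analysed here.

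The study hybridised 1 Affymetrix array per group. Both groups were peritoneal macrophages of male C57BL/6 mice, harvested for total RNA 48 h after transfection with control siRNA or with HDAC9 siRNA. Whether mice were pooled, and how far the HDAC9 protein fell, is not stated in the labels. With no replicate, no difference below could be set against a spread between cultures, and no test was made. The comparison asks which transcripts differ when HDAC9 is targeted.

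Background was set as a floor at log2 6.34, the 95th percentile of 80 probe sets for olfactory and vomeronasal receptors. Lower signals were raised to it, so a ratio with 1 array below it is a bound. The siRNA target was close to background. Hdac9 had log2 signals of 6.88 with control siRNA and 5.69 with HDAC9 siRNA by its first probe set, at least 1.46-fold lower, and 5.99 and 5.94 by its other probe set. Of the 45037 probe sets, 51.4% passed the floor with control siRNA and 53.6% with HDAC9 siRNA, and the trimmed mean linear signal was 497 on both.

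C-type lectin receptors are membrane proteins that carry a C-type lectin-like domain, with which some bind sugars in a calcium-dependent way and others bind proteins. Activating members signal through a tyrosine motif of their own or through the adaptors FcRγ (Fcer1g) and DAP12 (Tyrobp) to the kinase Syk, and from there through Card9, Bcl10 and Malt1 to NF-kappaB. Inhibitory members recruit the phosphatases SHP-1 (Ptpn6) and SHP-2 (Ptpn11). Macrophages use the activating receptors to sense fungi, mycobacteria and dead cells. Not every gene named Clec encodes such a receptor: Clec3b, Clec11a and Clec18a encode secreted proteins, and Clec16a encodes an intracellular protein of endosomes and mitophagy.

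All 10 members that were above background on both arrays had a lower signal on the HDAC9 siRNA array, a count added after the data were seen. None of the 16 above background on at least 1 array had a ratio or bound as large as 2-fold, beside 1.44% of all 12090 such genes at least 2-fold higher and 0.372% at least 2-fold lower, and a count of 0 among 16 is near those shares. The log2 ratios of the 10 (HDAC9 siRNA / control siRNA) ran from -0.78 to -0.09 with a median of -0.35, against a median of 0.02 over all 10732 genes above background on both arrays. Of those 10732 genes, 47.3% had a ratio below 0. The 10 were Clec7a, Clec4d, Clec4e, Clec4n, Clec4a2, Clec4a3, Clec5a, Clec2d, Clec2i and Clec10a. The nearest member signals on either side of the floor were 6.42 for a second Clec4a2 probe set and 6.27 for Clec4b1.

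**Figure D1:**
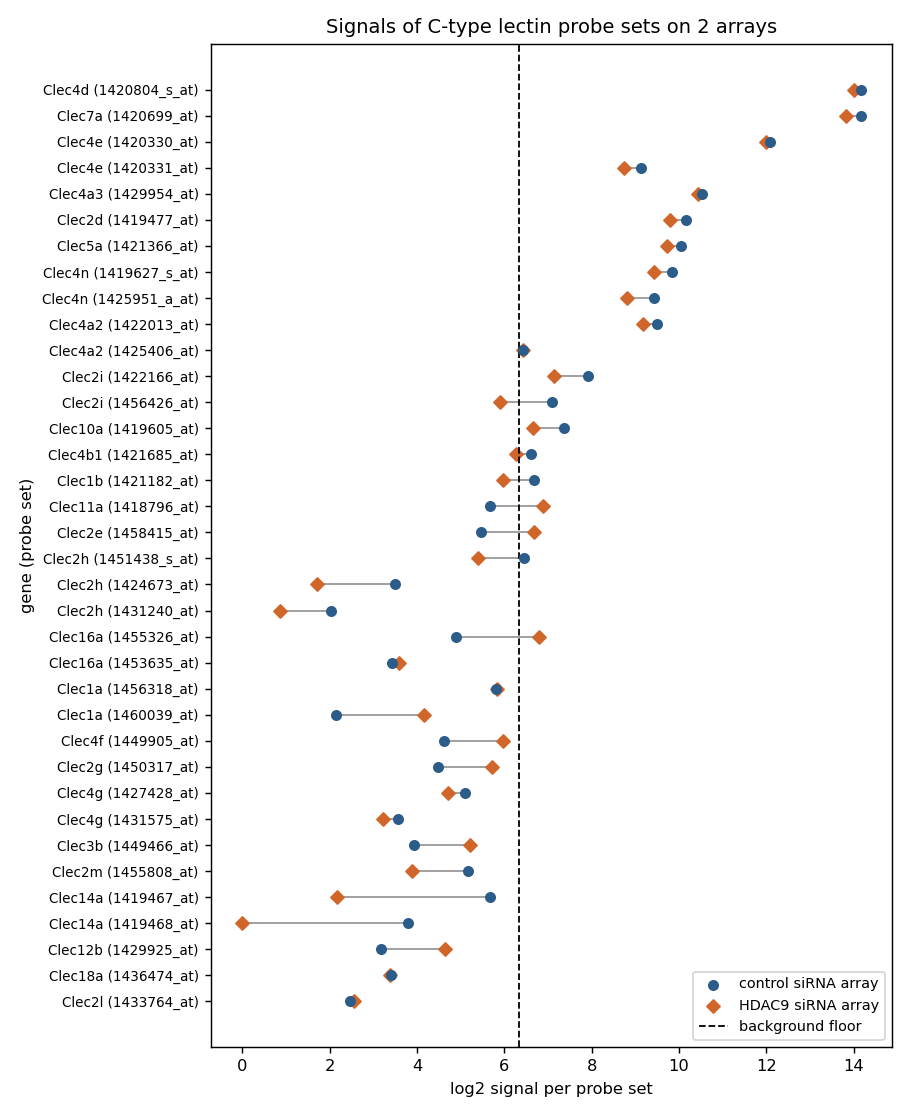
Log2 signal (x axis) of each of the 36 probe sets of the 26 C-type lectin genes (y axis, genes in order of their mean signal) on the control siRNA array (circles) and the HDAC9 siRNA array (diamonds), 1 array each, with the background floor dashed. The diamonds lie left of the circles at 12 of the 13 probe sets above the floor on both arrays, all but the second Clec4a2 probe set, and directions are mixed below it.

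The promoter sequences of 5 of these genes are shown. Clec7a, Clec4d, Clec4e and Clec5a stand for the activating receptors of macrophages. Clec2i was chosen by its value, as its ratio was farthest from 0 among members above background on both arrays. Each line gives the 250 bases before a gene's start, 5′ to 3′, from RefSeq on GRCm38.p6. Capitals mark matches, on either strand, to the PU.1 core GAGGAA, the AP-1 motif TGANTCA, the C/EBP motif TTGCNNAA, the MEF2 motif (CTA and TAG with any 4 bases between them) or the TATA box TATAAA; MEF2 is the factor class IIa deacetylases are best known to bind, and PU.1 is a lineage factor of macrophages.
Clec7a, chr6:129472786-129473035, minus strand: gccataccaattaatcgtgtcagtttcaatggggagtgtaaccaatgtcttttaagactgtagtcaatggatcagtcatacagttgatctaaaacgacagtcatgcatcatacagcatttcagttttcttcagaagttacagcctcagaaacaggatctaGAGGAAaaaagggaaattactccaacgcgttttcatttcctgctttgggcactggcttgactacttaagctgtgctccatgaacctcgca
Clec4d, chr6:123261857-123262106, plus strand: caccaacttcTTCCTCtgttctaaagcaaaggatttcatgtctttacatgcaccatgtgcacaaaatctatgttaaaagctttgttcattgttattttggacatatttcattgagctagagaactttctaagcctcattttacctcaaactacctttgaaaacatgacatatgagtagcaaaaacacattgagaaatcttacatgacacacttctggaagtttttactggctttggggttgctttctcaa
Clec4e, chr6:123289872-123290121, minus strand: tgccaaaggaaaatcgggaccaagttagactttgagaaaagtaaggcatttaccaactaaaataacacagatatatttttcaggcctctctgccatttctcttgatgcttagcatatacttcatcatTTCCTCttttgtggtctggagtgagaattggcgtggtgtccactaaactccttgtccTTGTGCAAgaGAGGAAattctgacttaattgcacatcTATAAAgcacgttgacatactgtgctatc
Clec5a, chr6:40585806-40586055, minus strand: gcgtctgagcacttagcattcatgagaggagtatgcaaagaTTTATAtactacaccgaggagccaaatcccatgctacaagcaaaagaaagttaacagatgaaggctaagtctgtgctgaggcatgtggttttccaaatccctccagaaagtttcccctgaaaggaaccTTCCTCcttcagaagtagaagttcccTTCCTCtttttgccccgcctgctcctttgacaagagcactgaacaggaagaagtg
Clec2i, chr6:128887337-128887586, plus strand: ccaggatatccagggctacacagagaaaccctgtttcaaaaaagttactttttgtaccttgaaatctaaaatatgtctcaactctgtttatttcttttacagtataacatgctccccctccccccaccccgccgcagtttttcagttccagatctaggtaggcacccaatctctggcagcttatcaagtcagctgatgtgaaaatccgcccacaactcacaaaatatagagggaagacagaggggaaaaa

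Windows of this kind were available for 22 of the 26 members. The PU.1 core was in a window of 11 of the 22, and in 25.9% of all 27025 genes with a window. Of the 8 members with a window that were above background on both arrays, 5 held it: Clec7a, Clec4d, Clec4e, Clec5a and Clec4a3. The other carriers were Clec11a, Clec14a, Clec16a, Clec18a, Clec2l and Clec4b1, each below background on at least 1 array. Clec4e, Clec5a and Clec4b1 each held the PU.1 core at 2 places, and in Clec4e a C/EBP match lay between base 66 and base 59 before the start. The MEF2 motif was in the windows of 0 of the 22 members and of 3.70% of all genes, so these letters are not in these stretches. AP-1 letters were found in 4 members (7.82% of all genes), all 4 below background on at least 1 array: Clec2e, Clec2g, Clec2h and Clec18a. Only 8 of the 22 members with a window were above background on both arrays. The TATA box was in 6 members (14.3% of all genes) and the C/EBP motif in 3 (10.8%). A gene with several windows counted once in each of these shares, and the motifs did not overlap each other in the lines shown.

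Activating receptors of fungal and mycobacterial sugars were measured well above background. Clec7a encodes Dectin-1, the receptor of beta-glucans of fungal walls, and its probe set read log2 14.18 with control siRNA and 13.82 with HDAC9 siRNA; other pairs of signals keep this order. It was 1.29-fold lower, a ratio of -0.36. Clec4n encodes Dectin-2, which binds fungal mannans and pairs with FcRγ, and had signals of 9.84 and 9.43, or 1.32-fold lower. Its second probe set went the same way, from 9.42 to 8.82, a ratio of -0.60. All 3 probe sets for these 2 genes were lower on the HDAC9 siRNA array.

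Clec4d and Clec4e encode MCL and Mincle, FcRγ-coupled partners that recognise the mycobacterial cord factor. Clec4d had signals of 14.16 and 14.01, a ratio of -0.15. For Clec4e the first probe set gave 12.08 and 11.99 (-0.09) and the second gave 9.12 and 8.74 (-0.38). The ratios of Clec4d and of the first Clec4e probe set, like that of Clec4a3, were smaller than 0.29 log2, the scatter per probe set. For this scatter the ratios of a gene's 2 brightest probe sets above background were subtracted, over 5671 genes. The standard deviation of these differences was then divided by the square root of 2. That scatter holds differences between transcripts and leaves out differences between cultures. Bounds entered it, and it was not split by signal level. The other 7 of the 10 genes had ratios larger in size than it, all of them below 0, against 11.5% of genes above background on both arrays that were lower by more than it. For Clec5a, the DAP12-coupled receptor MDL-1, known for its part in the response to flaviviruses, the signals were 10.06 and 9.72, or 1.26-fold lower.

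Clec4a2 was the one member known as an inhibitory receptor that was above background. Its protein DCIR1 carries an inhibitory motif that recruits SHP-1 and SHP-2. Clec4a2 had signals of 9.50 and 9.18 by its first probe set, 1.25-fold lower. Its second probe set lay just above the floor on both arrays, at 6.42 and 6.42, with a ratio of 0.0032, and this was the single one of 13 member probe sets above background on both arrays that was not lower. A further probe set carries the symbols of both Clec4b1 and Clec4a2, so it was assigned to neither; it went from 9.55 to 9.08. Clec4a3, a relative of DCIR1 encoded in the same cluster, was at 10.53 and 10.44, a ratio of -0.09. Clec4b1 encodes DCAR, an activating FcRγ-coupled relative, and was just above the floor on the control array (6.60) and just below it on the other (6.27), at least 1.20-fold lower.

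The ratios farthest from 0 came from genes with signals near the floor. Clec2i encodes Clr-g, a ligand for receptors of the NKR-P1 family on natural killer cells. Its signals of 7.92 and 7.14 put it 1.72-fold lower, and a second probe set went from 7.08 to below background at 5.90, at least 1.67-fold lower. Clec10a encodes MGL1, a galactose-binding lectin often used as a marker of alternatively activated macrophages. It had 1 probe set, with signals of 7.38 and 6.66, and was 1.64-fold lower. By each gene's brightest probe set, these 2 were the members past 1.5-fold in either direction, of 16 above background on at least 1 array. Of all 12090 such genes, 2.79% were at least 1.5-fold lower and 7.81% at least 1.5-fold higher. The second Clec4n probe set, well above the floor, was 1.52-fold lower. Clec2d encodes Clr-b, the widely expressed ligand of the inhibitory receptor NKR-P1B, and was at 10.17 and 9.79, or 1.30-fold lower.

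The other 6 of the 16 were above the floor on 1 array only and split evenly in direction. On the control array alone were Clec4b1, Clec1b and Clec2h. On the HDAC9 siRNA array alone were Clec11a, Clec16a and Clec2e.

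Clec1b encodes CLEC-2, the podoplanin receptor of platelets, which is also found on some myeloid cells. It went from 6.67 to 5.97 and was at least 1.26-fold lower. Clec2h encodes Clr-f, a Clr protein of the gut epithelium, and had 1 of 3 probe sets above the floor, from 6.46 to 5.40, at least 1.09-fold lower. In the opposite direction, Clec11a, which encodes a secreted growth factor for blood-forming and skeletal cells, went from 5.66 to 6.89 and was at least 1.47-fold higher. Clec16a went from 4.89 to 6.79, at least 1.37-fold higher, while its second probe set was below the floor on both arrays at 3.42 and 3.59. Clec2e, which encodes Clr-a, went from 5.46 to 6.69, at least 1.28-fold higher. Of the 3 genes higher on the HDAC9 siRNA array, Clec11a and Clec16a encode no membrane receptor. None of these 6 passed a stricter floor, the 99th percentile of the same olfactory and vomeronasal probe sets.

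Another 10 members were below background on both arrays. They included Clec1a (5.82 and 5.83), and Clec12b, which encodes an inhibitory receptor (3.18 and 4.63). Also below it were Clec4f, a marker of Kupffer cells in the mouse liver (4.61 and 5.96), and Clec4g, a lectin of liver sinusoidal endothelium (5.09 and 4.71). Clec14a, an endothelial membrane protein, was at 5.67 and 2.17 by one probe set, and its other probe set was at 3.80 and then listed at 0. Clec2g (4.48 and 5.73), Clec2m (5.18 and 3.89), Clec2l (2.47 and 2.55), Clec3b, which encodes the plasma protein tetranectin (3.94 and 5.21), and Clec18a (3.40 and 3.39) made up the rest. No ratio is given for these 10, since 2 signals below background have no order.

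**Figure D2:**
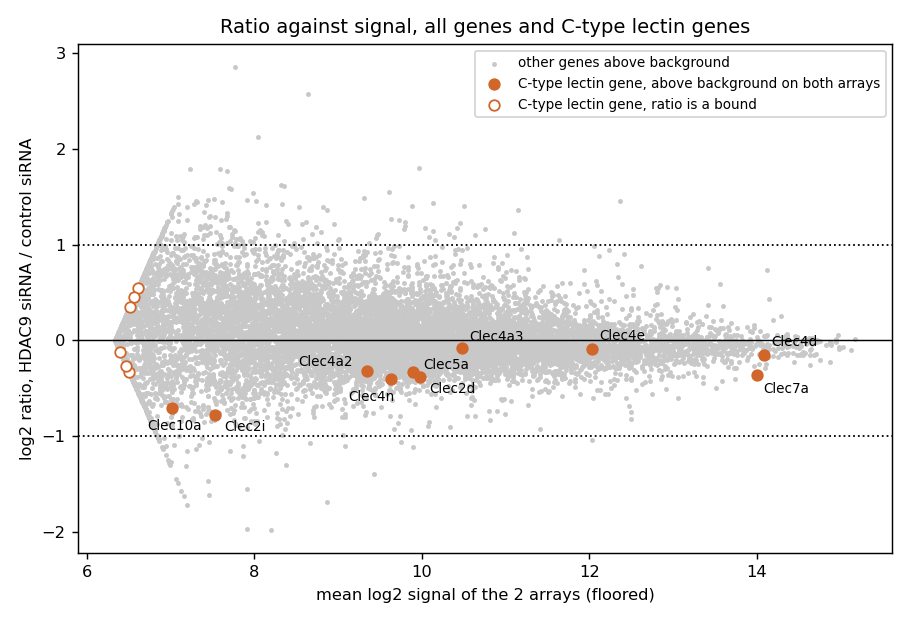
Log2 ratio, HDAC9 siRNA / control siRNA (y axis), against the mean floored log2 signal of the 2 arrays (x axis) for the 12090 genes above background on at least 1 array, 1 point per gene. The 10 C-type lectin genes above background on both arrays (filled) all lie below 0 and above the 2-fold line at -1 (dotted), from -0.78 to -0.09, and the 6 open points are bounds.

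Signal strength and ratio were related across the arrays, so the members were also read within bins of signal. When genes above background on both arrays were split into 4 equal bins of mean signal, the median ratio went from 0.14 in the dimmest to -0.05 in the brightest. Clec2i and Clec10a lay in the dimmest bin, where 36.9% of genes had a ratio below 0. The second bin held 1 member (41.3% of its genes below 0) and the third held 4 (48.5%), all lower on the HDAC9 siRNA array. The brightest held Clec7a, Clec4d and Clec4e, with 62.7% of its genes below 0. After a loess correction of this trend all 10 ratios were still below 0, with Clec7a at -0.30, Clec4d at -0.086, Clec4e at -0.038, Clec10a at -0.81 and Clec2i at -0.88.

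**Figure D3:**
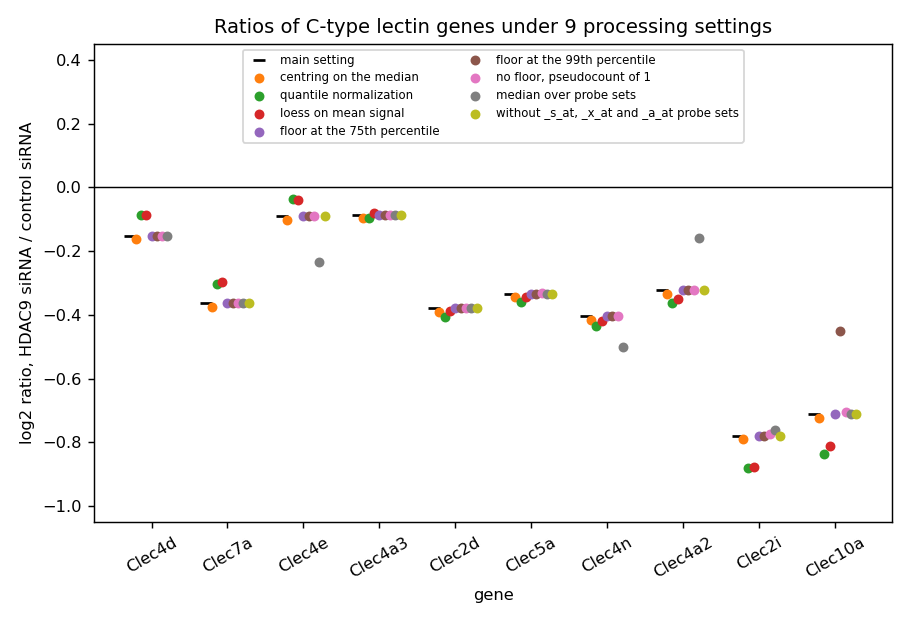
Log2 ratio, HDAC9 siRNA / control siRNA (y axis), for the 10 C-type lectin genes above background on both arrays (x axis) under the main setting (black bar) and 8 alternatives (coloured points; a gene with no probe set left under an alternative has no point). Every plotted value is below 0, and Clec10a with the 99th percentile as floor, -0.45, is a bound.

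Most members sit in clusters on chromosome 6, which holds 19 of the 26. In the stretch from Clec4a1 to Clec4e, 9 Clec genes follow each other with no other protein-coding gene between them. The 6 of them with a probe set each passed the floor on at least 1 array. The 5 above background on both arrays, which are among the 10 above, had ratios from -0.40 to -0.09 with a median of -0.15, and all 5 were below 0, beside 47.3% of all genes above background on both arrays. The stretch from Clec12a to Clec7a holds 6 Clec genes, 4 of them measured. Clec7a alone of these was above background on both arrays, and its neighbour Clec1a was below it on both. From Clec2h to Clec2m, 7 Clec2 genes are interspersed with 6 other genes, among them NKR-P1 receptor genes, and of the 6 Clec2 genes measured there Clec2d and Clec2i were above background on both arrays. A cluster thus held genes above background on both arrays next to genes below it.

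The genes that carry the signal of these receptors had ratios in both directions. Of 37 signalling genes listed, 31 were measured, all of them above background on both arrays, and 0 were past 2-fold. Their median ratio was 0.12, or 0.063 by the median over each gene's probe sets, with 12 below 0 and 19 above, where 47.3% of all genes above background on both arrays were below 0. The adaptor genes Fcer1g (14.24 and 14.22) and Tyrobp (14.64 and 14.52) and the kinase gene Syk (11.51 and 11.69), chosen after their values were seen, had ratios of -0.02, -0.13 and 0.18. The ratios farthest from 0 belonged to Cblb, a ubiquitin ligase that restrains Syk signalling (0.57), the kinase gene Map3k7 (0.57), the NF-kappaB subunit gene Nfkb2 (0.54) and Nfatc2, a calcium-regulated transcription factor gene (0.48). Malt1, the paracaspase downstream of Card9 and also chosen after its value was seen, was at -0.48. Card9 itself was not among the 31 measured genes.

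C-type lectin domain genes without a Clec symbol were mixed too. Of 32 measured, 12 were above background on at least 1 array, with a median of 0.04. Beside 47.3% below 0 among all genes above background on both arrays, 5 of the 12 were below 0 and 7 above. Those farthest from 0 were Thbd, which encodes the anticoagulant receptor thrombomodulin (0.57), Cd248, of stromal cells (0.53), Pla2r1 (0.51) and Selp, which encodes P-selectin (0.37). The mannose receptor gene Mrc1, chosen after its value was seen, had signals of 12.51 and 12.49 and a ratio of -0.02. All 7 measured DC-SIGN relatives, Cd209a to Cd209g, were below background on both arrays, and so was Mgl2, the closest relative of Clec10a.

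Partners of the members were read from a list of 6 measured genes, 3 of them above background. Pdpn, which encodes the CLEC-2 ligand podoplanin, was at 13.49 and 13.62, a ratio of 0.13. Rnf41, the ubiquitin ligase partner of Clec16a, was at 0.28. Mmrn2, a ligand of Clec14a, was above the floor on the HDAC9 siRNA array only (6.42), a bound of 0.08. The NKR-P1 receptor genes Klrb1a, Klrb1b and Klrb1f were below background on both arrays.

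**Figure D4:**
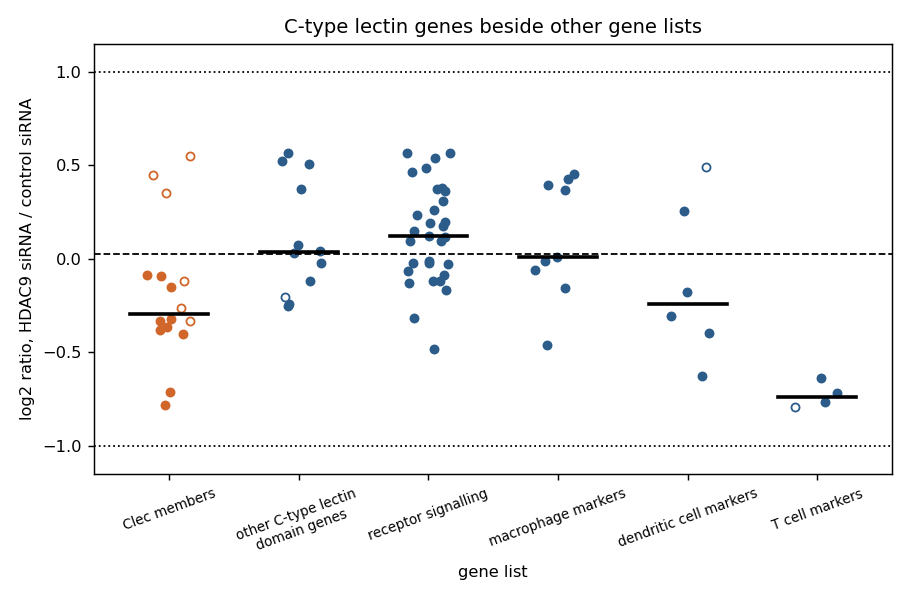
Log2 ratio, HDAC9 siRNA / control siRNA (y axis), of the genes above background on at least 1 array in 6 gene lists (x axis), with each list's median as a black bar, bounds as open points and the median over all genes, 0.03, dashed. The C-type lectin members have a median of -0.29 over 16 genes, beside 0.04 for other C-type lectin domain genes and 0.12 for signalling genes.

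Several of these receptors are shared by macrophages with dendritic cells, granulocytes and lymphocytes, and in bulk RNA fewer cells of a type and less RNA per cell cannot be told apart. The macrophage label was borne by 9 of 10 markers above background on both arrays, among them Adgre1 (12.71 and 12.72), which encodes F4/80, and Csf1r (13.90 and 13.74), and Timd4 was below it. Their median ratio was 0.01, with Cd14 at -0.46, Gata6 at 0.46, Fcgr1 at 0.43 and Icam2 at 0.40, and their summed signal went from log2 15.9 to 15.8. Of 10 dendritic cell markers, 6 were above background on at least 1 array, 4 of them below 0, with a median of -0.24 and a summed signal from log2 12.5 to 12.4. Batf3 was at -0.63, Cd83 at -0.40, Dpp4 at -0.30 and Siglech at a bound of 0.49. The defining factor gene Zbtb46 was above background at 7.42 and 7.67 (0.26), as was Itgax at 11.62 and 11.45 (-0.18), while Flt3, Xcr1, Ccr7 and Itgae were below background on both arrays. Among 8 measured T cell markers, 4 passed the floor on at least 1 array, and all 4 had ratios below 0, with a median of -0.74 and a summed signal from log2 10.8 to 10.1. They were Cd8a (a bound of -0.79), Lat (-0.77), Thy1 (-0.72) and Cd28 (-0.64), and Cd3d, Cd3e, Cd3g and Cd4 were below background on both arrays. Beside these dendritic and T cell counts, which include bounds, 47.3% of all genes above background on both arrays were below 0.

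Among platelet markers, set beside Clec1b, 8 of 9 were above background. Of these, 3 were below 0, beside 47.3% of all genes above background on both arrays. The platelet markers had a median of 0.13 and a summed signal from log2 11.1 to 10.9. Treml1 was at a bound of -0.81, Itgb3 at -0.71, Gp6 at a bound of 0.64 and Pf4 at -0.38. Endothelial markers, set beside Clec14a, had 5 of 11 above background and a median of 0.19, and their summed signal went from log2 10.0 to 10.3. Robo4 was at a bound of 0.69, Vwf at 0.46, Kdr at 0.19 and Esam at -0.10, and Cdh5, Pecam1, Tek and Tie1 were below background. Neutrophil, natural killer and B cell markers had medians of 0.08 (4 of 9 genes above background), 0.07 (Prf1, 1 of 7) and 0.40 (a bound for Pax5, 1 of 7). The 4 neutrophil markers were Csf3r (0.45), S100a8 (-0.22), Mmp8 (0.10) and Mmp9 (0.05). All 14 mesothelial and stromal markers were above background, with a median of 0.18, 8 above 0 and 6 below, and Col1a1 at 1.80, Col3a1 at 1.46, Msln at -1.11 and Lum at 0.58. Their summed signal went from log2 15.6 to 16.0, beside 15.9 to 15.8 for the macrophage markers. Such a sum is led by bright probe sets, here among them Col1a2 (13.94 and 14.37) and Col3a1 (11.63 and 13.09). It does not measure a share of cells. The part of these cell types in the C-type lectin ratios was not tested.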

How the data were processed

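Per the labels, RNA of 1 control siRNA and 1 HDAC9 siRNA sample was hybridised to 1 Affymetrix array each. The authors deposited log2 signals per probe set, with MAS5 as the tool per the submitters' processing notes, which give no version or scaling target. The trimmed linear means were equal, so the deposited scaling was kept.

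Of 45037 probe sets, 34945 had 1 gene symbol in a platform annotation, 932 several and 9160 none; 34741 of the first matched a RefSeq table of GRCm38.p6 and 0 symbols changed. A gene took its probe set with the highest mean linear signal. Signals below the floor were raised to it before the ratio; with 1 array per group, a fold of 2 stood in for a call, and precision is limited by the number of arrays. Members and lists were chosen with earlier results of these data known. The named genes are every member and, per other list, up to 4 genes with the largest ratios; any other gene of these lists was named after its values were seen, such as adaptors and defining markers. Left out as listed in error were 3 genes, the galectin gene Lgals3, Klrg1 and Sap130. Alternatives were centring, quantile normalization, loess (span 0.3), the 75th or 99th percentile as floor, a pseudocount of 1 without a floor, the median over probe sets above background, dropping _s_at, _x_at and _a_at probe sets, and folds of 1.5 and 3. The steps were tested on simulated data. Python 3.11.15, numpy 2.4.6, pandas 2.3.3 and statsmodels 0.14.6 were used.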

Additional observations from a re-analysis of the deposited data

How the results depend on the processing

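Of 119 values of the 16 members under the alternatives, 109 stayed within the probe set scatter of 0.29 log2, 10 moved by more and 0 changed sign. The 10 belonged to Clec11a, Clec16a, Clec1b, Clec2e and Clec2h, with the 75th percentile as floor or none, where their bounds moved or became ratios; Clec16a was then at 1.51 and 1.86. The members at least 2-fold higher and lower, 0 and 0, were 3 and 1 of 20 with the 75th percentile as floor (4.35% and 1.71% of all genes) and 7 and 3 of 26 with no floor (12.2% and 8.14%), where signals below background enter. At 1.5-fold, 2 were lower. A count of members above background on both arrays with a ratio below 0 was added after seeing the data. Beside it in brackets is the share of all genes above background on both arrays. It was 10 of 10 under centring (49.1%), quantile normalization (49.4%), loess (48.0%) and the median over probe sets (46.3%). It was 9 of 9 with the 99th percentile as floor (48.3%) and 8 of 8 without _s_at, _x_at and _a_at probe sets (46.4%). With the 75th percentile as floor it was 13 of 16 (46.5%), and with no floor 17 of 26 (45.6%). The signalling genes' median of 0.12 was 0.063 by the median over probe sets; the cause was not tested. No paired analysis was possible because each group has 1 array, and no replicate could be left out. Below the floor, neither a level nor a direction can be read from these signals.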
